A study of Mus musculus with 64 samples.

Results

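The Celf and Mbnl genes encode RNA-binding proteins that control how transcripts are spliced, and 8 of them were examined here: Celf1, Celf2, Celf3, Celf4, Celf5, Celf6, Mbnl1 and Mbnl2. They were taken by gene symbol, and the files listed 102 of their transcripts among 112714 transcripts of 46785 genes. Celf2 was represented by 28 transcripts, Mbnl1 by 25, Celf3 by 15, Celf1 by 14, Celf5 and Celf6 by 8 each, and Celf4 and Mbnl2 by 2 each. The family was chosen by a measured value, since a retained-intron transcript of Celf2, ENSMUST00000182560, had already been seen to change with the drugs in these libraries. The drug values of Celf2 are therefore given as a description without a test.

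RNA was sequenced from the nucleus accumbens (NAc) and the prefrontal cortex (PFCx) of adult male C57BL/6N mice aged 8 to 10 weeks, 2 h after a single intraperitoneal injection. The drugs were the antipsychotics haloperidol (1 mg/kg) and risperidone (0.5 mg/kg), the psychostimulant methamphetamine (2 mg/kg), the antidepressants venlafaxine (16 mg/kg) and mianserin (20 mg/kg), and the dissociative anaesthetic ketamine (20 mg/kg). Every drug was given in saline, with a drop of hydrochloric acid for haloperidol and risperidone, and controls received saline. Each drug had 4 libraries per tissue and saline had 8, which made 64 libraries of ribosomal RNA-depleted total RNA from dissected tissue, a mixture of cell types. No source used here says that each library was a separate mouse or that the tissues came from the same mice, so the p-values measure only the spread between these libraries.

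The saline libraries carried the label of set I or set II, with 4 libraries of each per tissue. NAc libraries of haloperidol, methamphetamine, risperidone and saline set I listed 85287 to 87827 transcripts above 0. Those of ketamine, mianserin, venlafaxine and saline set II listed 107099 to 110556, and every PFCx library 108556 to 110852. The drug libraries carry no set label, and each drug was joined to the saline set whose numbers it resembled in the NAc. In the PFCx, where the numbers do not separate the groups, a drug was given the set of its NAc libraries, and no value checks this. Each drug was compared with all 8 saline libraries and also with the 4 of the set inferred for it, called its own set or the same set from here on. Depth was estimated from the median ratio of the deposited coverage to the transcript level over long, abundant transcripts. It ran from 1.52 to 3.26 gigabases per library, with a median of 2.39. The dissections carried the markers of their tissue. The 7 markers of striatal medium spiny neurons summed to 480 to 661 FPKM (fragments scaled to transcript length and to the mapped fragments of the library) in NAc saline libraries and to 20.1 to 74.4 in PFCx ones, and the 6 markers of cortical projection neurons to 25.0 to 69.3 and 167 to 218.

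CELF proteins bind GU-rich RNA through RNA recognition motifs and act on alternative splicing, on mRNA decay and on translation. MBNL proteins bind RNA through zinc fingers and often act on the same exons in the opposite direction. In myotonic dystrophy, expanded CUG repeats capture MBNL proteins while CELF1 protein rises, which is what the families are best known for. Both families have many of their known targets in neurons, among them transcripts of ion channels, synaptic proteins and the tau protein.

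The sequences on which the results turned were few. The drug-associated Celf2 transcript ENSMUST00000182560 lies on the minus strand at chr2:6620239-6884892 (GRCm38), is 4802 bases long and is annotated as a retained intron. Its last exon consists of a 49-base exon that runs on into the intron behind it, chr2:6615823-6624670, and it keeps the first 4432 of the 8848 bases of that intron. The 120 bases at that junction, chr2:6624600-6624719 on the minus strand, are shown because they mark where this transcript leaves the coding ones, with the exon in capitals and the kept intron in lower case.
Celf2 junction: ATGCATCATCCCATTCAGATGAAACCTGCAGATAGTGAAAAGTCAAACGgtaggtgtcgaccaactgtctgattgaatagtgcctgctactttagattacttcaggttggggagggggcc

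Mbnl1 and Mbnl2 share a pair of short exons that can be included or skipped. The 54-base exon carries part of a nuclear localisation signal, and the 36-base exon has been linked to self-association of the protein. They are shown because the shares of transcripts with and without them are given further on, with the bases that differ between the genes in capitals. The 54-base exons, at chr3:60614683-60614736 in Mbnl1 and at chr14:120395712-120395765 in Mbnl2, were the same at 46 of 54 bases. The 36-base exons, at chr3:60621423-60621458 and chr14:120403336-120403371, were the same at 31 of 36 bases. All 4 lie on the plus strand of GRCm38.
Mbnl1 exon of 54 bases: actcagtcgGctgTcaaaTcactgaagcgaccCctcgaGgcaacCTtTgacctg
Mbnl2 exon of 54 bases: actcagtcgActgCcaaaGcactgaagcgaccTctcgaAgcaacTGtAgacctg
Mbnl1 exon of 36 bases: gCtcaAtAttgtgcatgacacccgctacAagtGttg
Mbnl2 exon of 36 bases: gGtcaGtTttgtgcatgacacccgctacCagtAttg

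After saline, Celf2 had the highest level of the 8 genes in both tissues and Celf6 the lowest. Levels are sums of FPKM over the transcripts of a gene, a scale per transcript length by which genes are set side by side here. Short entries count in full, and the place of Celf3 rests in part on a short coding fragment described further on. In the NAc, Celf2 stood at 74.8 ± 3.54 FPKM (SD, n = 8), followed by Celf3 at 42.1 ± 4.54 and Celf4 at 36.3 ± 3.2. Mbnl2 (26.6 ± 0.884), Mbnl1 (26.3 ± 1.68), Celf1 (23.3 ± 1.68) and Celf5 (21.9 ± 1.41) came next, and Celf6 reached 3.08 ± 0.558. Neighbours in this order overlapped in range except Celf2 and Celf3, Celf4 and Mbnl2, and Celf5 and Celf6.

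In the PFCx the order after Celf2 (72.6 ± 3.82 FPKM, n = 8) was Celf4 at 39.9 ± 3.58, Celf3 at 31.9 ± 4.38, Celf1 at 26.5 ± 4.48, Mbnl2 at 20.6 ± 1.19, Celf5 at 19.4 ± 1.46, Mbnl1 at 17.2 ± 1.22 and Celf6 at 3.43 ± 0.689. Here only Celf2 and Celf4, and Mbnl1 and Celf6, were neighbours whose ranges did not overlap. Mbnl1 and Mbnl2 thus stood at nearly the same level in the NAc, and their ranges were apart in the PFCx, where Mbnl1 ran from 14.9 to 18.7 and Mbnl2 from 18.9 to 22.1 FPKM.

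**Figure D1:**
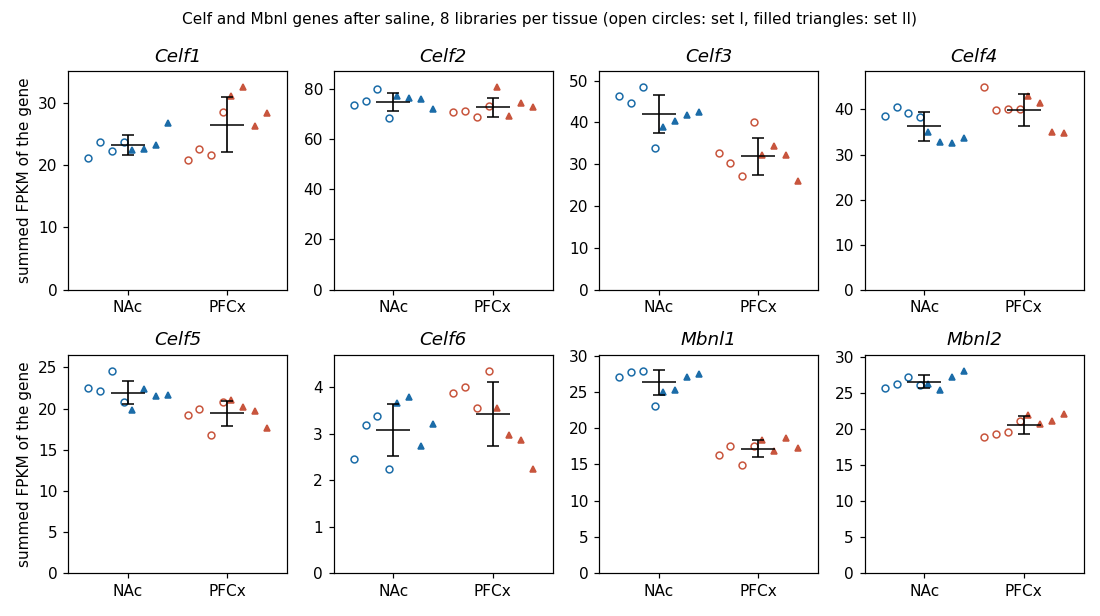
Summed FPKM of each Celf and Mbnl gene (y axis, from 0) in the 8 saline libraries of the NAc and of the PFCx (x axis). Open circles are set I, filled triangles are set II, and the black bar gives the mean ± 1 SD. Mbnl1 and Mbnl2 libraries of the NAc all lie above those of the PFCx, while Celf2 overlaps between the tissues.

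The clearest tissue differences were those of the Mbnl genes, both higher in the NAc. Mbnl1, the founding member of its family, ran from 23.1 to 27.9 FPKM in the NAc, with a median of 27.0, and had a median of 17.4 in the PFCx. Mbnl2, the family member best known in the brain, ran from 25.4 to 28.1 FPKM in the NAc with a median of 26.3, against a median of 20.9 in the PFCx. Every NAc library lay above every PFCx library for both genes. On the scale of log2(FPKM + 1), NAc minus PFCx was 0.59 ± 0.051 (SE) for Mbnl1 (limma, adjusted p = 1.41e-07) and 0.35 ± 0.040 for Mbnl2 (adjusted p = 3.53e-06). In bulk tissue, more cells of a type and more RNA per cell cannot be told apart.

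Both differences were also called within each sample set. Mbnl1 differed by 0.64 in set I (limma, adjusted p = 0.00117) and by 0.53 in set II (adjusted p = 0.000303), and Mbnl2 by 0.40 (adjusted p = 0.00104) and 0.31 (adjusted p = 0.00394). Markers of oligodendrocytes moved the same way. The 3 of them summed to 420 to 583 FPKM in NAc saline libraries and to 109 to 152 in PFCx ones, and all 3 passed as higher in the NAc. Their part in the Mbnl difference was not tested.

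Celf3, a CELF protein found mainly in the nervous system, was also higher in the NAc. Its libraries ran from 34.0 to 48.5 FPKM there (median 42.1) and from 26.1 to 40.2 in the PFCx (median 32.2), so the ranges overlapped. The difference was 0.39 ± 0.084 (limma, adjusted p = 0.00221), with 0.40 in set I (adjusted p = 0.0642) and 0.38 in set II (adjusted p = 0.0131). Celf5 passed with a smaller difference of 0.17 ± 0.052 (adjusted p = 0.022), and it missed the threshold in set I (0.22, adjusted p = 0.0585) and in set II (0.11, adjusted p = 0.311).

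The other 4 genes did not pass. The differences were 0.04 ± 0.042 for Celf2 (limma, adjusted p = 0.429), -0.13 ± 0.064 for Celf4 (adjusted p = 0.116), -0.17 ± 0.088 for Celf1 (adjusted p = 0.146) and -0.11 ± 0.105 for Celf6 (adjusted p = 0.401). Celf6 went opposite ways in the sample sets, with -0.39 in set I (adjusted p = 0.0272) and 0.16 in set II (adjusted p = 0.422). Celf1 passed in set II only, at -0.30 (adjusted p = 0.035), against -0.03 in set I (adjusted p = 0.839).

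Of the 8 genes, 4 therefore passed, all higher in the NAc. Over all 37034 genes tested, 33.9% passed, 7.16% as higher in the NAc and 26.8% as higher in the PFCx, and the median difference was -0.105. Within set I 35.3% of all genes passed, with 2060 of the 13062 higher in the NAc and a median difference of -0.151. Within set II 20.8% passed, with 2497 of the 7709 higher in the NAc and a median of -0.046. The lean of all genes toward the PFCx was thus smaller in set II.

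Among single transcripts, most of those that differed between tissues were not the main coding ones. After removal of transcripts with a mean FPKM under 0.1 in both tissues, 84 of the 102 remained, and 18 of the 84 passed (21.4%). They split into 14 higher in the NAc and 4 higher in the PFCx. Over all 86331 transcripts tested 13.7% passed, 4.27% as higher in the NAc and 9.46% as higher in the PFCx. Celf2 had 7 of the 18, Celf3 and Mbnl1 had 4 each, Celf6 had 2 and Celf1 had 1. None of the Celf4, Celf5 and Mbnl2 transcripts passed. In set I alone 9 passed, where 7.1% of all transcripts passed, and in set II alone 11, where 9.85% passed. Celf1 ENSMUST00000127385 rested on single libraries, since it passed in 6 of the 16 fits that left out 1 library, and the other 17 passed in all 16.

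By annotated type, 11 of the 19 retained-intron transcripts tested passed with more in the NAc and 1 with more in the PFCx, against 4.59% and 6% of all retained-intron transcripts tested. Of the 47 protein-coding transcripts, 2 passed as higher in the NAc while 1 was higher in the PFCx, against 5.76% and 11.1% of all protein-coding transcripts. The 16 processed transcripts held a single call, toward the PFCx, against 2.68% (NAc) and 6.76% (PFCx) of all of that type. Of the 2 transcripts marked for nonsense-mediated decay 1 was higher in each tissue, against 2.12% and 5.39% of all of that type. The retained-intron transcripts of a gene share exons and reads, so they are not separate observations.

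In Mbnl1 all 4 transcripts that passed carry a retained intron. ENSMUST00000195839 stood at 1.78 ± 0.291 FPKM in the NAc against 0.864 ± 0.0989 in the PFCx (SD, n = 8), a log2 difference of 0.57 ± 0.064 (limma, adjusted p = 9e-06). ENSMUST00000192394 stood at 1.90 ± 0.197 and 1.05 ± 0.228. The ratio of the NAc mean to the PFCx mean was 2.06 and 1.81 for these transcripts and 1.53 for the Mbnl1 sum. The difference in share of the gene did not pass for any Mbnl1 transcript.

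In Celf3, 3 of the 4 transcripts that passed carry a retained intron. The fourth, ENSMUST00000200342, is a coding transcript of 3173 bases, and it stood at 7.82 ± 0.903 FPKM in the NAc and at 4.74 ± 0.722 in the PFCx, a log2 difference of 0.62 ± 0.082 (limma, adjusted p = 4.6e-05). The most abundant Celf3 entry, the 366-base coding fragment ENSMUST00000199884, held 31.9% ± 5.09 of the gene in the NAc against 39.0% ± 5.99 in the PFCx and did not pass.

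The Celf2 sum did not pass, while single Celf2 transcripts passed in both directions. The 4 Celf2 transcripts annotated as retained introns were all higher in the NAc, with log2 differences of 0.29 to 0.30. ENSMUST00000182523, which keeps the intron before the one kept by ENSMUST00000182560, stood at 6.87 ± 0.445 FPKM in the NAc against 5.42 ± 0.583 in the PFCx. ENSMUST00000170438, a coding transcript that held 13.5% ± 1.85 of the gene in the NAc, was higher in the NAc by 0.54 ± 0.121 (limma, adjusted p = 0.00617). In the other direction, the coding transcript ENSMUST00000137733 was higher in the PFCx.

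As a share of the gene, retained-intron transcripts made up 26.3% ± 1.54 of Celf2 in the NAc against 21.1% ± 1.83 in the PFCx (SD, n = 8). The shares were 35.0% and 27.8% for Celf3 and 27.7% and 24.5% for Mbnl1. Over all genes the share was also larger in the NAc, at 5.2% ± 0.609 and 4.13% ± 0.291. These sums were formed after the values had been seen and are given without a test.

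ENSMUST00000137733 was the only transcript of the 95 tested whose share of its gene passed the test between the tissues. It is an entry of 630 bases that begins at position 7396198 on chromosome 2, upstream of ENSMUST00000170438, which begins at position 6884996 on the same minus strand. After saline its NAc values in set I were 1.57, 1.84, 6.0 and 3.07 FPKM, and in set II 5.47, 4.63, 4.57 and 3.89. The PFCx values were 11.3, 7.98, 5.67 and 7.58 in set I and 9.41, 8.37, 9.97 and 11.3 in set II. A single NAc library, at 6.0, lay above the lowest PFCx library, at 5.67.

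The share of this transcript in Celf2 was 7.18 percentage points lower in the NAc (limma, adjusted p = 0.00831). It was 7.33 points lower in set I (adjusted p = 0.335) and 7.03 points lower in set II (adjusted p = 0.0432). Of all 58421 shares tested 0.787% passed. Its own log2 difference was -1.08 ± 0.204 (adjusted p = 0.00165).

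Celf2 transcripts were also grouped by where they begin, a grouping formed after the values had been seen. The distal group includes ENSMUST00000137733, whose share had passed, so its contrast is not separate from that result. The 4 transcripts with the most distal starts, at positions 7395893, 7396000, 7396198 and 7509563, held 12.9% to 16.9% of Celf2 in the NAc, with a median of 15.3%, and 22.3% to 28.8% in the PFCx, with a median of 24.6%, and the ranges did not overlap. The 10 proximal transcripts, which include ENSMUST00000182560, held 51.5% in the NAc against 45.1% in the PFCx. The 10 that begin further inside the gene held 26.4% and 22.1%, and the 4 that begin between the distal and proximal groups held 7.08% and 7.83%.

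**Figure D2:**
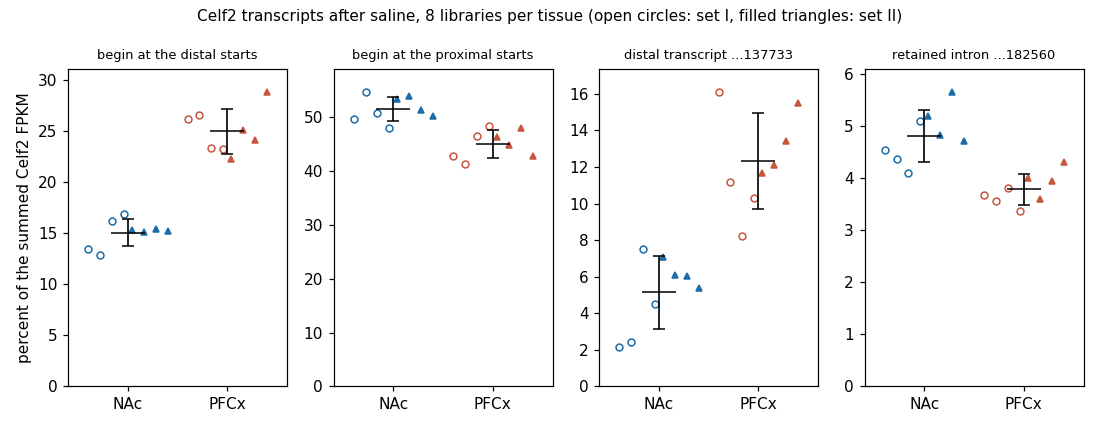
Percent of the summed Celf2 FPKM (y axes, each from 0) held by the transcripts with distal starts, those with proximal starts, the distal transcript ENSMUST00000137733 and the retained-intron transcript ENSMUST00000182560, in 8 saline libraries per tissue. Open circles are set I, filled triangles are set II, and bars are mean ± 1 SD. The distal group, which includes ENSMUST00000137733, lies at 12.9 to 16.9% in the NAc and at 22.3 to 28.8% in the PFCx.

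The 250 bases before the start of ENSMUST00000137733, which is also the start given for Celf2 by RefSeq (GRCm38.p6, chr2:7396199-7396448, minus strand), are shown because the transcript whose share passed begins behind them. Of the other distal transcripts, 2 begin further inside the gene than this start, and ENSMUST00000182037 begins upstream of the window. The window was searched on both strands for the TATA box core TATAAA, for the CCAAT box and for the GC box GGGCGG, and the capitals mark the only match, a TATAAA. The same letters occur in 12.4% of 32851 RefSeq windows of this length, and the ones without a match here occur in 33.8% and 32.7%. Its GC content was 45.6%, against a median of 52.4%.
Celf2 distal start: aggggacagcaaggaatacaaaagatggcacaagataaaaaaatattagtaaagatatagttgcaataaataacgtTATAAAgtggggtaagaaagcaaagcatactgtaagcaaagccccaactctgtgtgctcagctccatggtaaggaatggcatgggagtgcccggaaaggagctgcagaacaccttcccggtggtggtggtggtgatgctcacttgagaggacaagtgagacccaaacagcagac

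For the alternative exons of the Mbnl genes, the ranges of inclusion overlapped between the tissues. Of the Mbnl1 transcripts that span it, 5 carry the 54-base exon and 9 do not, and those with it held 57.5% of their FPKM in the NAc (39.9% to 74.6%, n = 8) against 55.3% in the PFCx (33.6% to 67.5%). The 36-base exon of Mbnl1, carried by 6 transcripts and lacking in 5, was at 62.0% ± 7.59 and 62.0% ± 7.47 (SD). Both annotated Mbnl2 transcripts carry the 54-base exon, so its inclusion cannot be read from these files. The 36-base exon of Mbnl2 is carried by ENSMUST00000167459 and not by ENSMUST00000088419, and stood at 59.4% ± 10.2 and 60.0% ± 15.8.

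Single libraries were far apart in these shares. The Mbnl2 exon ranged from 40.5% to 71.5% in NAc saline libraries and from 27.6% to 79.7% in PFCx ones, and the 4 PFCx mianserin libraries ranged from 9.91% to 88.5%. The sum of the 2 Mbnl2 transcripts varied far less, with an SD of 0.884 FPKM around 26.6 in the NAc. The shares come from how fragments were divided between nearly identical transcripts, and are given without a test.

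**Figure D3:**
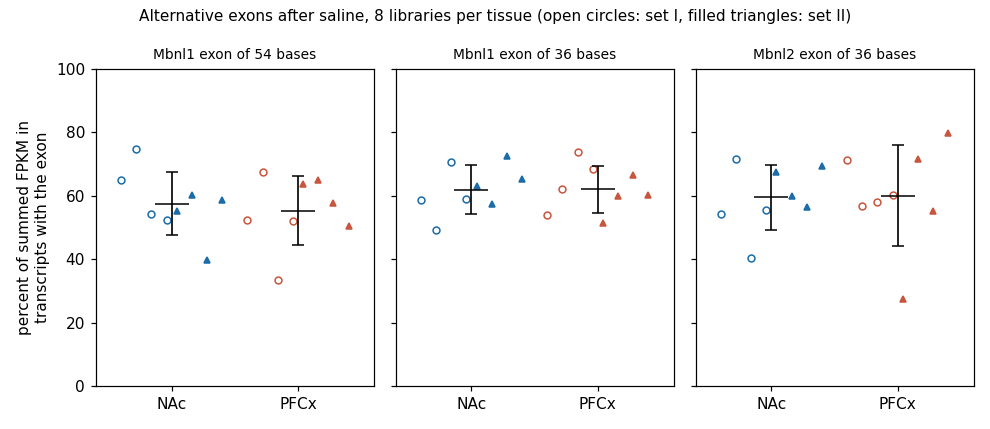
Percent of the summed FPKM of the transcripts spanning an exon that was held by transcripts carrying it (y axis, 0 to 100%), for the 54-base and 36-base exons of Mbnl1 and the 36-base exon of Mbnl2, in 8 saline libraries per tissue. Open circles are set I, filled triangles are set II, and bars are mean ± 1 SD. The means lie between 55.3 and 62.0% and the tissues overlap for each exon.

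Celf4, a gene with a known role in neuronal excitability, was divided between its 2 transcripts in the same way in both tissues. ENSMUST00000025117 held 73.0% ± 4.45 in the NAc against 72.5% ± 3.87 in the PFCx. In Celf5, the full-length coding transcript ENSMUST00000118763 held 63.5% ± 12.8 and 56.0% ± 14.6, and ENSMUST00000119060, which starts at a different first exon, held 13.0% ± 13.9 and 21.8% ± 17.2. In Celf1, first described as a CUG-binding protein, the coding transcripts ENSMUST00000111452 and ENSMUST00000068747 held 28.0% ± 5.73 and 18.8% ± 5.74 in the NAc, while in the PFCx they held 20.5% ± 9.06 and 25.9% ± 6.54. None of these differences in share passed.

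Celf6, the gene with the lowest level, had ENSMUST00000034840 as its most abundant transcript. It stood at 1.78 ± 0.36 FPKM in the NAc and at 1.32 ± 0.41 in the PFCx. The Celf6 transcripts that passed were ENSMUST00000129728 and ENSMUST00000143916, both at low levels. The first, a retained-intron transcript, was at 0.117 ± 0.156 and 0.635 ± 0.441. The second, marked for nonsense-mediated decay, was at 0.0144 ± 0.0274 and 0.179 ± 0.111. The filter asked for a mean of at least 0.1 FPKM in either tissue. ENSMUST00000143916 may have entered through the PFCx, where it was then called higher, so its call may not be separate from the filter. Within set I alone 1 of the 6 Celf6 transcripts tested passed, where 7.1% of all transcripts did. Within set II alone 0 passed, where 9.85% of all did. Protein-coding transcripts held 94.9% ± 4.77 of Celf6 in the NAc against 72.1% ± 11.3 in the PFCx.

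The retained-intron transcript ENSMUST00000182560 of Celf2 is the one on which the family was selected, so its drug values are described only. In the NAc, the saline libraries were at 3.34, 3.29, 3.27 and 3.49 FPKM in set I and at 4.01, 3.68, 4.29 and 3.39 in set II. The mianserin libraries were at 5.29, 4.95, 5.8 and 5.26. All 4 lay above every saline library of either set. The mianserin mean was 1.39 times that of saline set II and 1.48 times that of all saline. As differences of log2(FPKM + 1), which understate the change of low values, these were 0.39 and 0.46.

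No other drug group lay wholly apart from saline in the NAc for this transcript. Venlafaxine libraries were at 3.96, 4.49, 4.08 and 3.5 FPKM, and ketamine libraries at 3.78, 3.52, 3.44 and 3.59. Haloperidol libraries were at 2.75, 3.28, 2.81 and 2.77, risperidone libraries at 3.1, 4.01, 3.6 and 3.21, and methamphetamine libraries at 2.95, 3.34, 3.06 and 3.11. Each of these groups overlapped with the saline libraries of its own set, with ratios to them of 1.04, 0.932, 0.867, 1.04 and 0.931. For haloperidol the overlap rested on library 2, at 3.28 FPKM, since the others, at 2.75 to 2.81, lay below every saline library.

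In the PFCx the values were lower, and the mianserin libraries overlapped with saline in FPKM but not in the share of Celf2. Saline libraries were at 2.6, 2.53, 2.62 and 2.46 FPKM in set I and at 3.23, 2.49, 2.94 and 3.12 in set II, and mianserin libraries at 3.04, 3.22, 3.14 and 3.47. The ratio to saline set II was 1.09. As a share of Celf2, the mianserin libraries were at 5.01%, 4.46%, 4.32% and 4.58% in the PFCx, above the saline libraries at 3.36% to 4.3%, and in the NAc they were at 6.53% to 7.39%, above saline at 4.09% to 5.65%. In FPKM, methamphetamine was the only PFCx group outside the range of its saline set, at 2.21, 2.27, 2.36 and 2.35, with a ratio of 0.90 to saline set I.

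**Figure D4:**
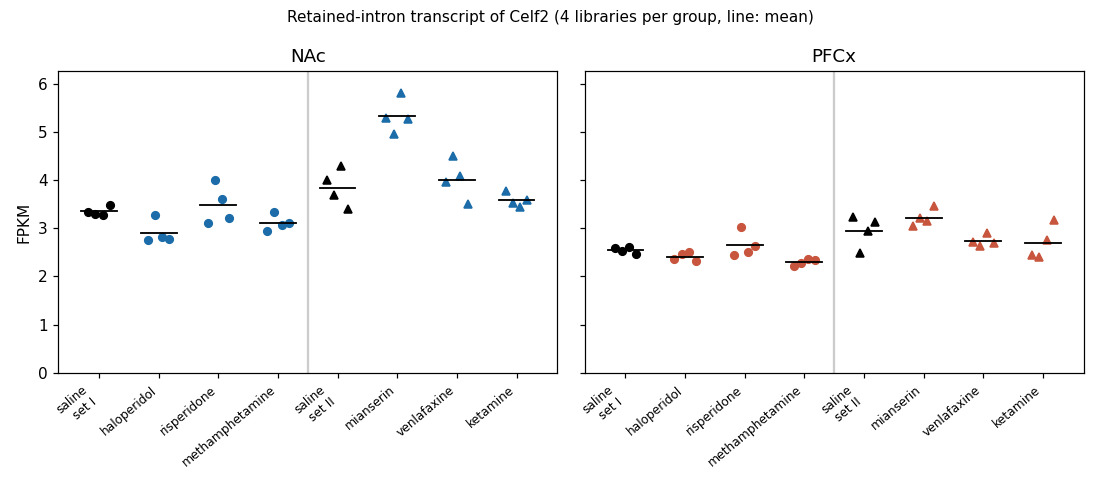
FPKM of ENSMUST00000182560 (y axis, from 0) in each library of the NAc (left) and the PFCx (right), by treatment, with saline in black. Circles are set I and triangles set II (inferred for the drug groups), 4 libraries per drug group, and the line is the group mean. The 4 NAc mianserin libraries lie at 4.95 to 5.8, above every saline library.

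Neighbouring parts of Celf2 did not all follow. ENSMUST00000183269, a retained-intron transcript that begins inside the gene, was at 6.16, 6.53, 6.67 and 6.97 FPKM in the NAc mianserin libraries, above every saline library, with a ratio to saline set II of 1.13. ENSMUST00000126742, which keeps the first 1143 bases of the same intron as ENSMUST00000182560, was at 3.4, 3.97, 3.37 and 3.52 and overlapped with saline. The Celf2 sum was at 73.7, 75.9, 78.6 and 75.3 FPKM, against 77.1, 76.4, 75.9 and 71.9 in saline set II.

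The share of Celf2 held by retained-intron transcripts was 28.7% to 29.9% in the NAc mianserin libraries and 23.3% to 28.3% in the NAc saline libraries. Over all genes the share was 4.52% to 5.48% after mianserin and 4.26% to 6.22% after saline. The Celf2 share includes ENSMUST00000182560, the transcript that chose the family. Without it, retained-intron transcripts held 21.3% to 23.3% of Celf2 after mianserin and 19.2% to 23.2% after saline, and the ranges overlapped.

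Across the 64 libraries, after the mean of each tissue and sample set had been taken away, the transcripts of other genes most like ENSMUST00000182560 were searched among 25893. They were Gm43486 (Pearson r = 0.776), the Rbm25 retained-intron transcript ENSMUST00000182881 (r = 0.754), Gm37310 (r = 0.703), the Dclk1 retained-intron transcript ENSMUST00000198757 (r = 0.64) and Rnf145 (r = 0.628). Of the Celf and Mbnl transcripts, Celf2 ENSMUST00000183269 was most like it (r = 0.424), and Celf3 ENSMUST00000198796 went most strongly the other way (r = -0.556). The libraries share their groups and saline controls, so these values describe them and carry no test.

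For the 7 genes other than Celf2, drug effects were tested across all transcripts. The test asked whether any of the 6 drugs differed from saline (limma F test). In the NAc, 8 of 63 transcripts passed against all saline libraries (12.7%), where 11.6% of all transcripts passed. Against saline of the same sample set 2 of the 63 passed (3.17%), where 0.645% of all passed. The 2 were Celf3 ENSMUST00000198796 and Mbnl1 ENSMUST00000194069.

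ENSMUST00000198796 of Celf3, annotated as a retained intron, was lower after mianserin in the NAc. The mianserin libraries were at 2.91, 2.53, 2.24 and 3.05 FPKM, all below saline set II at 4.31, 4.42, 3.82 and 3.95. The difference was -0.48 ± 0.098 (SE) on the log2 scale (limma, adjusted p = 0.031), a comparison in which 0.162% of all transcripts passed. Against all saline it was -0.41 ± 0.087 (adjusted p = 0.025).

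Risperidone libraries were also below their saline set for this Celf3 transcript, at 3.1, 2.81, 2.31 and 3.28 FPKM against 3.91, 3.68, 3.32 and 3.58, but the difference of -0.26 ± 0.098 did not pass (limma, adjusted p = 0.584). In the PFCx the mianserin libraries were at 2.88, 1.59, 1.8 and 1.43 and overlapped with saline set II, which ran from 2.22 to 2.52. The sum over all Celf3 transcripts in the NAc was 38.8, 40.4, 41.2 and 41.7 FPKM after mianserin and 38.9, 40.3, 41.7 and 42.4 in saline set II.

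Mbnl1 ENSMUST00000194069, a coding transcript that carries the 54-base exon and lacks the 36-base one, passed the F test against saline of the same set (limma, adjusted p = 0.043). It was at 0.00024 to 0.000717 FPKM in the 4 NAc mianserin libraries, against 2.35, 1.97, 1.1 and 0.331 in saline set II. Values near 0 occurred without a drug as well, since saline set I was at 0.722, 0.00244, 0.879 and 0.00124. The mianserin difference itself did not pass (adjusted p = 0.0891). Against all saline (adjusted p = 0.0278) the call was lost in 1 of 32 fits that left out a library, the one without venlafaxine library 4. The Mbnl1 sum after mianserin, at 29.2, 29.5, 26.7 and 25.2 FPKM, overlapped with saline set II at 25.0, 25.2, 27.1 and 27.4.

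The other 6 transcripts passed only with all saline libraries as control, and they belong to Celf3, Celf5 and Celf6. Of these, Celf6 ENSMUST00000121266 was called in 12 of the 32 fits that left out a library and Celf6 ENSMUST00000034840 in 29, and the other 4 in all 32. In Celf5 the sample set moved with the values. ENSMUST00000119060 was at 0.0322, 2.25, 0.000405 and 0.000439 FPKM in NAc saline set I and at 5.42, 8.5, 3.6 and 2.47 in set II, so saline libraries alone were apart by set. It was also high in the other NAc libraries of set II, at 4.09 to 10.4 after mianserin, 5.39 to 11.9 after venlafaxine and 3.7 to 10.8 after ketamine.

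At the level of the gene sum, Celf4 (limma F test, adjusted p = 0.000794) and Celf5 (adjusted p = 0.0198) passed in the NAc against all saline, where 36.9% of all genes passed. Celf4 in NAc saline libraries was at 38.5, 40.6, 39.3 and 38.3 FPKM in set I and at 34.9, 32.7, 32.5 and 33.7 in set II, again apart by set. Against saline of the same set none of the 7 genes passed by limma, where 1.63% of all genes passed. Of the 7, 1 was at an unadjusted p under 0.05 by limma, where 11.3% of all genes were.

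In the PFCx none of the 7 gene sums passed by limma, and none was at an unadjusted p under 0.05, with either control. Over all genes 3.34% passed against all saline and 1.45% against saline of the same set. At an unadjusted p under 0.05 by limma were 16.7% and 11.9% of all genes. Of the 63 transcripts, Celf5 ENSMUST00000120856 passed against all saline (adjusted p = 0.0475), where 1.12% of all transcripts passed. Risperidone libraries were at 0.903, 1.12, 0.913 and 1.16 FPKM and saline libraries at 0.578 to 0.861. This call held in 6 of the 32 fits that left out a library. Against saline of the same set none of the 63 passed, where 0.484% of all passed. By limma, 3 of the 63 were at an unadjusted p under 0.05, where 9.43% of all transcripts were.

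With saline of the same set as control, differences of the gene sums ran from -0.22 ± 0.119 (Celf1, ketamine, PFCx) to 0.37 ± 0.149 (Celf6, methamphetamine, NAc) on the log2 scale. Over the 8 genes, the 6 drugs and both tissues, 4 groups did not overlap with their saline set, and they are described without a call. With 4 libraries on each side such gaps also arise by chance. How often they arose over all genes was not counted. Celf6 was at 4.09, 3.66, 3.76 and 3.99 FPKM after methamphetamine in the NAc, against 2.46, 3.18, 3.37 and 2.24. Celf5 was at 23.3, 23.8, 23.3 and 26.2 after ketamine in the NAc, against 19.8, 22.4, 21.5 and 21.7.

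The remaining groups outside their saline range were in the PFCx. Celf5 was at 21.8, 22.5, 22.1 and 21.3 FPKM after risperidone, against 16.8 to 20.8 in saline set I. Celf2 was at 68.1, 67.4, 67.7 and 65.3 after methamphetamine, against 70.6, 71.0, 68.9 and 73.3. In all other combinations of gene, drug and tissue the ranges overlapped.

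**Figure D5:**
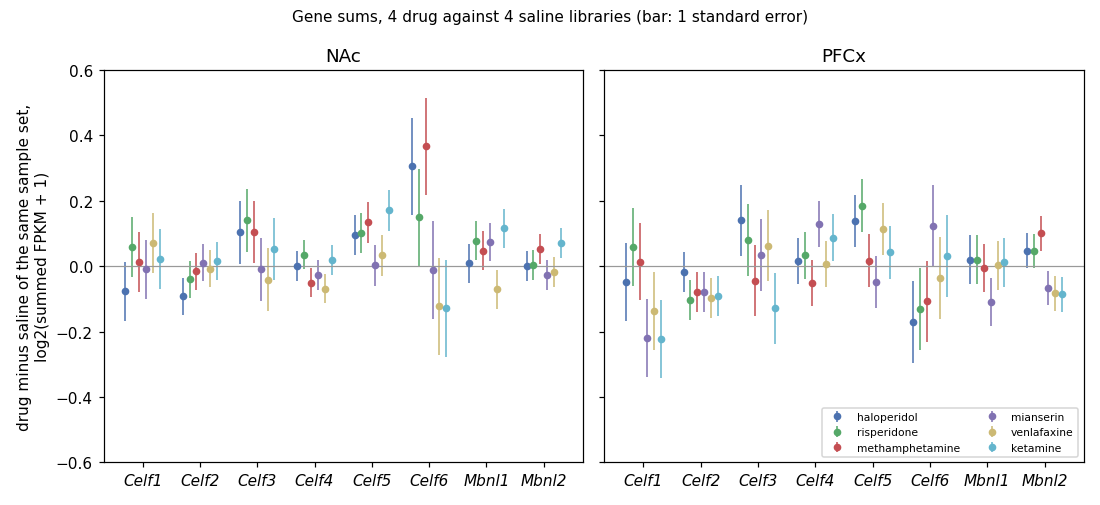
Difference between each drug and saline of the same sample set for the 8 gene sums, as log2(summed FPKM + 1) (y axis), in the NAc (left) and the PFCx (right). Points are fitted differences of 4 drug against 4 saline libraries, coloured by drug, and bars are 1 standard error. The differences lie between -0.22 and 0.37. None of the 7 genes other than Celf2 passed the test, and Celf2 is shown without one.

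Whether a drug effect differed between the tissues was tested for the same 63 transcripts. None passed by limma with all saline libraries as control, with 9 at an unadjusted p under 0.05, and the lowest adjusted p was that of Celf3 ENSMUST00000200342 (0.0865). Over all transcripts 1.59% passed, and 14.3% were at an unadjusted p under 0.05 by limma. With saline of the same set none passed, where 0.272% of all passed. By limma, 5 of the 63 were then at an unadjusted p under 0.05, where 6.97% of all transcripts were.

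Of 19 other regulators of neuronal splicing, 18 were tested, with 5 higher in the NAc, 7 higher in the PFCx and a median difference of -0.11, where 7.16% and 26.8% of all genes were higher and the median was -0.105. Rbfox1, a splicing factor of neurons and muscle, was higher in the NAc by 0.64 on the log2 scale (limma, adjusted p = 6.05e-09). Elavl4, a neuronal Hu protein, stood at -1.52 (adjusted p = 5.11e-09), and Khdrbs3, of the Sam68 family, at -1.46 (adjusted p = 4.67e-10). Srrm4, which promotes the inclusion of neuronal microexons, stood at -0.96 (adjusted p = 3.1e-08). After the drugs, 10 of the 18 passed in the NAc against all saline, where 36.9% of all genes passed. By limma, 0 passed against saline of the same set (1.63% of all genes), with a lowest adjusted p of 0.0581 for Elavl2. In the PFCx 0 passed with all saline (3.34%) or saline of the same set (1.45%), with lowest adjusted p-values of 0.0586 for Nova1 and 0.0601 for Elavl4.

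Of 8 genes known as splicing targets of MBNL proteins, 1 was higher in the NAc and 5 were higher in the PFCx at the level of the gene, with a median of -0.30, against the same 7.16% and 26.8% of all genes. Ndrg4 was higher in the NAc by 0.71 (limma, adjusted p = 7.72e-09). Mapt, which encodes tau, stood at -0.49 (adjusted p = 1.22e-05), and Camk2d, a calcium- and calmodulin-dependent kinase, at -0.78 (adjusted p = 0.000259). After the drugs 2 passed in the NAc against all saline, where 36.9% of all genes passed, and 0 by limma against saline of the same set, where 1.63% passed and the lowest adjusted p was 0.119 for Camk2d. A sum over transcripts says nothing about which exons of a target are used.

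Several members overlap other annotated genes, and the use of strand in counting is not given in the sources used here, so reads of a gene and of a partner on the other strand could not be told apart. Celf2 overlaps the antisense gene Gm13389 near its proximal starts and contains Gm26315, a short RNA listed at a mean of 1230 FPKM. Celf3 overlaps Riiad1, Celf5 overlaps Gm16105 and Mbnl2 overlaps Gm26679, all on the opposite strand. Mbnl1 holds Gm37589 and Gm37488 on its own strand.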

How the data were processed

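The authors depleted ribosomal RNA (RiboMinus), prepared Ion Total RNA-seq libraries and sequenced single reads. They aligned reads with TopHat 2.0.1 and then Tmap to mm10 (GRCm38), and quantified Ensembl transcripts with Cufflinks 2.2.1. The deposited values are FPKM per transcript, which the authors normalized to transcript length and mapped fragments. The deposited coverage was used for depth only. Read counts were not analysed here, so FPKM carry no counting interval.

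FPKM were summed per gene and divided by that sum for shares. Tests used limma 3.58.1 (R 4.3.3) on log2(FPKM + 1), with transcripts and genes at a mean of at least 0.1 in either tissue, or on shares in percent for genes with a mean sum of at least 1 FPKM in both tissues. Benjamini-Hochberg adjustment covered all features, with a threshold of 0.05, and scripts were tested on simulated data. Drug groups, which carry no set label, were joined to the labelled saline sets by the number of transcripts above 0 in the NAc, an inference that was carried over to the PFCx. Celf2 was left out of all drug counts. Types and positions came from GENCODE vM21, which held all 102 transcripts, and 100 had the same coordinates as in the files.

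All 8 genes were named, with transcripts that held at least 10% of a gene in a tissue, up to 10 past the drug or drug-by-tissue tests, up to 6 past the share test, and ENSMUST00000182560. Other transcripts named for tissue differences or low values were chosen after their values were seen. The members and lists were chosen with earlier results of these data known. Alternatives were the pseudocount, the filter, rescaling to the 75th percentile, sample sets, a replicate block, coding transcripts only, quantification status, the threshold and leaving out each library.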

Additional observations from a re-analysis of the deposited data

Results flagged for a closer look

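Of 140 groups of 4 or 8 libraries examined for the gene sums and the main transcripts, 8 held a library that lay apart from the rest of its group by Dixon's criterion, and chance flags about 1 group in 20. No explanation was tested. Celf1 was at 26.8 FPKM in NAc saline library 4 of set II, where the others ran from 21.1 to 23.8, and at 28.7 in PFCx methamphetamine library 4, where the others ran from 21.6 to 22.2. Celf2 was at 80.7 FPKM in PFCx saline library 1 of set II, against 68.9 to 74.4. Mbnl1 was at 25.3 FPKM in NAc venlafaxine library 1, against 24.7 to 24.8, and Mbnl2 at 23.0 in PFCx methamphetamine library 2, against 20.6 to 20.7. The distal Celf2 transcript ENSMUST00000137733 was at 6.5e-11 FPKM in NAc risperidone library 1, against 4.6 to 5.44, and at 10.1 in PFCx methamphetamine library 1, against 6.95 to 7.14. The Celf2 retained-intron transcript ENSMUST00000182560 was at 3.28 FPKM in NAc haloperidol library 2, against 2.75 to 2.81.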

How the results depend on the processing

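Drug counts are of the 63 transcripts or 7 genes other than Celf2, and tissue counts of the 84 transcripts, 95 shares or 8 genes. The 8 transcripts past the drug test in the NAc became 0 at a threshold of 0.0001 and 2 with saline of the same sample set. The 2 genes past it became 0 under both, and 1 with a pseudocount of 0.1, after rescaling to the 75th percentile or with coding transcripts only. The 1 transcript past it in the PFCx became 0 at 0.0001, with saline of the same set, with a pseudocount of 0.1, at a mean FPKM of at least 1 and after rescaling to the 75th percentile. The drug-by-tissue count of 0 became 1 with a pseudocount of 0.1. The 18 transcripts past the tissue test became 9 in set I and 11 in set II, of which 8 and 8 were among the 18, and the 1 share became 0 in set I and 2 on the arcsine scale. Within set II the Celf6 tissue difference turned to 0.157. The causes were not tested, and fits within a set also rest on fewer libraries.

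Combining saline of the same set with a threshold of 0.0001, chosen after seeing the data, left 0 transcripts and 0 genes in the NAc and 0 transcripts in the PFCx. Whether replicate numbers pair the libraries was not settled. Deviations of same-numbered libraries correlated at a mean of 0.042 for the NAc and 0.066 for the PFCx, against -0.014 and -0.021 for other numbers. Between NAc and PFCx saline libraries the means were -0.035 for the same number and 0.012 for other numbers. With a replicate block, 9 transcripts and 2 genes passed the drug test in the NAc and 0 transcripts in the PFCx, and the tissue tests gave 13 transcripts, 0 shares and 3 genes. A replicate block with saline of the same set, also chosen after seeing the data, gave 2 transcripts and 0 genes in the NAc and 0 transcripts in the PFCx.

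Leaving out 1 library at a time gave 6 to 10 transcripts and 2 to 3 genes past the drug test in the NAc, 0 to 1 transcripts in the PFCx, 0 to 1 past the drug-by-tissue test, and 17 to 23 transcripts, 1 to 2 shares and 4 genes in every case past the tissue tests. The drug-by-tissue count was 1 without PFCx haloperidol library 3 or 4, risperidone library 3 or ketamine library 4. The share count was 2 without PFCx saline library 1, 2 or 4 of set I.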

Other observations

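Markers of other cell types were counted in the same limma fits of the gene sums. Between the saline libraries of the tissues, all 7 markers of striatal medium spiny neurons passed as higher in the NAc and all 6 of cortical projection neurons as higher in the PFCx. Of 3 astrocyte markers, Gfap and Aqp4 passed as lower in the NAc. Of 3 microglia markers, Cx3cr1 (limma, adjusted p = 0.0496) and Csf1r (adjusted p = 0.0358) passed as higher there, close to the threshold. The third microglia marker, Aif1, went the other way at -0.21 and did not pass (limma, adjusted p = 0.189). The 3 endothelial markers had adjusted p-values from 0.0976 for Flt1 to 0.724 for Pecam1. Of 3 choroid plexus markers, Kl was higher and Ttr and Folr1 were lower in the NAc. With saline of the same sample set as control, markers that passed the drug test in the NAc included Mbp of oligodendrocytes (limma F test, adjusted p = 0.0106) and Aqp4 of astrocytes (adjusted p = 0.0441). In the PFCx the lowest adjusted p among the listed markers was 0.0631, for Cldn5.

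Marker sums also differed between the sample sets of NAc saline libraries, a comparison chosen after the values were seen. Cortical projection neuron markers summed to 50.9 to 69.3 FPKM in set I and to 25.0 to 46.2 in set II, and oligodendrocyte markers to 514 to 583 and 420 to 483. Celf4 was apart by set in the same libraries, and the part of either cell type in its values was not tested.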
